A study of Mus musculus with 26 samples.

Results

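The stretch described here is the part of mouse chromosome 4 that the transgene BAC-E covers around *Runx3*, and its members are all consensus peaks with a midpoint between chr4:134954652 and 135174651 (mm10, 220 kb). A bacterial artificial chromosome (BAC) is a large piece of genomic DNA that can be carried as a transgene. There were 334 such peaks among the 159182 of the series: 39 of 64227 ATAC peaks, 96 of 32655 H3K27Ac peaks, 61 of 13443 Runx3 peaks, 19 of 32822 Brn3a peaks and 119 of 16035 Isl1 peaks. All of them come from TrkC neurons, the early proprioceptive neurons, of the dorsal root ganglia (DRG) of E11.5 embryos, which bore BAC-E-GFP on a Cb6F1 background, in which GFP was fused into exon 3 of the *Runx3* copy on BAC-E. In 2 experiments the neurons were instead taken by magnetic beads with anti-TrkC, from GFP-positive or WT mice, and which samples came from WT mice is not given in the sources used here. The 26 samples were 3 of ATAC-seq, which maps open chromatin, 5 of CUT&RUN for the histone mark H3K27Ac, 8 for Runx3, 2 for Brn3a, 3 for Isl1 and 5 with normal rabbit serum (NRS), the controls of CUT&RUN.

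The cells that bear BAC-E hold this stretch in extra copies besides the 2 of their own chromosomes, and the number of extra copies is not given in the sources used here. Reads from the transgene and from the endogenous locus map to the same coordinates, so that in these lists they cannot be told apart. The ends of the stretch follow the study's approximate description of BAC-E and are not mapped ends. The lists pool the samples and hold positions, a count of Runx binding sites (RBS) for each Runx3 peak, and the marks V$BRNF for Brn3a and V$LHXF for Isl1, with no signal, score or depth. No spread between embryos could be measured, and no test was made. Shares are given with 95% Wilson intervals, which cover counting error only.

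Runx3 is a Runt-domain transcription factor (TF) that TrkC neurons need to develop. Brn3a, encoded by *Pou4f1*, is a POU homeodomain TF, and Isl1 is a LIM homeodomain TF, and both are expressed as sensory neurons leave the precursor state. As other Runx genes do, *Runx3* has a distal promoter, P1, and a proximal promoter, P2, which lies in a CpG island. The enhancers R1, R2 and R3, upstream of P1, drive its expression in TrkC neurons. H3K27Ac marks active promoters and enhancers.

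In GENCODE M21 the P1 start of *Runx3* is at chr4:135120652 and the P2 start at chr4:135152496, 31.8 kb further, both on the plus strand, and all distances below are measured from P1. The stretch thus ran from -166 kb to 54.0 kb. Besides *Runx3* (chr4:135120652-135177990), whose last exon lies beyond it, it held the lincRNA *Gm16225* just upstream of P1 (chr4:135118221-135120447, minus strand) and the antisense RNA *Gm16224* in the first intron (chr4:135143421-135144285). The flank of the same length on the 5' side held *Maco1*, *Rhd*, *Tmem50a*, *Rsrp1* and *Syf2*, and the flank on the 3' side *Clic4*, *Srrm1* and most of *Ncmap*.

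The 6 sequences of GRCm38.p6 shown here carry some of the motifs named in the account of the enhancers and promoters. For R3 and for the element at -88.2 kb the 300 bp with the most Runx motifs in the Runx3 peak are shown, for R2 and R1 the 300 bp about the midpoint of the ATAC peak, and for P1 and P2 the 250 bp before the more upstream of the RefSeq and GENCODE starts. The window of R3 lies at the 3' edge of that element, outside its ATAC peak, its Isl1 peak and its Brn3a peak with BRNF. It does not hold the POU core of R3. Capitals mark matches, on either strand, of the Runx motif, of a POU core and of LIM homeodomain motifs. The Runx motif was ACCACA with A in both variable places, GCCACA with G in the first of them, ACCGCA with G in the inner one and GCCGCA with G in both. The POU core was ATTAAT, which reads the same on both strands and was counted once. The LIM motif was CTAATGG in 1 form and CTAATTG in the other.
R3, chr4:135026936-135027235, plus strand: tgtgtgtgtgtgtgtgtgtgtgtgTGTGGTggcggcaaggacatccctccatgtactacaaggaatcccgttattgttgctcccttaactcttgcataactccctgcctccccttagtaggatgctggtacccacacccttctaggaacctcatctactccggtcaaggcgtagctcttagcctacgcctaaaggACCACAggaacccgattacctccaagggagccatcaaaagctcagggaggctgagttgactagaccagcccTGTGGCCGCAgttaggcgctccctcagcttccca
Element at -88.2 kb, chr4:135032179-135032478, plus strand: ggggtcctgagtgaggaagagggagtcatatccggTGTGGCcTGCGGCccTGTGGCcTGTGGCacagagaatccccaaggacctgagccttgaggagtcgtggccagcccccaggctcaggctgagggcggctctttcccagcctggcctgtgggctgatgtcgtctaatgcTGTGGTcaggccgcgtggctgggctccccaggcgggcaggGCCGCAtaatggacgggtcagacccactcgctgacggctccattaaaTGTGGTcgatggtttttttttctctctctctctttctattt
R2, chr4:135038306-135038605, plus strand: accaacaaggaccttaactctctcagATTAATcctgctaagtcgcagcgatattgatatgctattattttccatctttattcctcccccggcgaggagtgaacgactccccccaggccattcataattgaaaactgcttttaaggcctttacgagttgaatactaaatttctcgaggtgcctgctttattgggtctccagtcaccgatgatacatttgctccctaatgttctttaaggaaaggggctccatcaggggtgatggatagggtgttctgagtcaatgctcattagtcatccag
R1, chr4:135050024-135050323, plus strand: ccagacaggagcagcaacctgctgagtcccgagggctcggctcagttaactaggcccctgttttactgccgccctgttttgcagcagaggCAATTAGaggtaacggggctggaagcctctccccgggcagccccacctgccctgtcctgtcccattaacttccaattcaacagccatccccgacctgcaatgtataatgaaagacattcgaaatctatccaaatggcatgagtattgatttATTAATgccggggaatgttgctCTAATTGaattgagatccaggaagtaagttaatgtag
P1, chr4:135120395-135120644, plus strand: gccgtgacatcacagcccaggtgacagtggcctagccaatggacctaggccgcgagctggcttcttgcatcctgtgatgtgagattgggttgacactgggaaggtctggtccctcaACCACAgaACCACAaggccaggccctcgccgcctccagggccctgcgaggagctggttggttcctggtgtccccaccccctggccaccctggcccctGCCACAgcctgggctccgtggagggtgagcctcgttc
P2, chr4:135152246-135152495, plus strand: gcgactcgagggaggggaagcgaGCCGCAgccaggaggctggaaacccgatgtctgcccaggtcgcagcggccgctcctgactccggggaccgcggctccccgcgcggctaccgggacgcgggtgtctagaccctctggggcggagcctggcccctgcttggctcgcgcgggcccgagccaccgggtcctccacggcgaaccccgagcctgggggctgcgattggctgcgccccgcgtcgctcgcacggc

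The letters of these windows differed by element. The window of R3 held 4 Runx matches, of which the pair near its 3' end overlapped by 2 bases, and that at -88.3 kb held 7. R2 held 1 POU core, and R1 held 1 POU core and 2 LIM motifs, with no Runx match in either. The 250 bp before P1 held 3 Runx matches and those before P2 held 1. P2 was the richest in CpG, with 33 CpG and 76.0% GC against 8 CpG and 65.2% at P1, where the median of 32851 RefSeq promoters of that length was 6 CpG and 52.4%. Of 64227 windows of 300 bp about ATAC midpoints, 48.9% held a Runx match, 6.59% the POU core and 6.12% a LIM motif, and 0.701% held 4 or more Runx matches. Of the 32851 promoter windows, 38.0% held a Runx match. The windows of R3 and at -88.3 kb were picked for their matches, so their counts cannot be read against these shares. The 300 bp about the midpoint of the ATAC peak in R3 held no match of any of the 3 motifs.

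Peaks of all 5 lists were crowded in the stretch compared with both flanks. Isl1 was the most crowded, with 119 peaks in the stretch, 1 in the 5' flank and 0 in the 3' flank. H3K27Ac had 96 peaks against 9 and 5, Runx3 61 against 5 and 3, Brn3a 19 against 3 and 2, and ATAC 39 against 12 and 8. Per length, the stretch held 238 times as many Isl1 peaks as the flanks, 15.2 times as many Runx3 peaks, 13.7 times as many H3K27Ac peaks, 7.60 times as many Brn3a peaks and 3.90 times as many ATAC peaks. The Isl1 ratio rests on that 1 flank peak, and with flanks of 1 Mb it was 54.1. That 1 Isl1 peak lay at the very edge, less than 1 kb outside the stretch. What the extra copies add to each of these ratios was not tested.

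**Figure D1:**
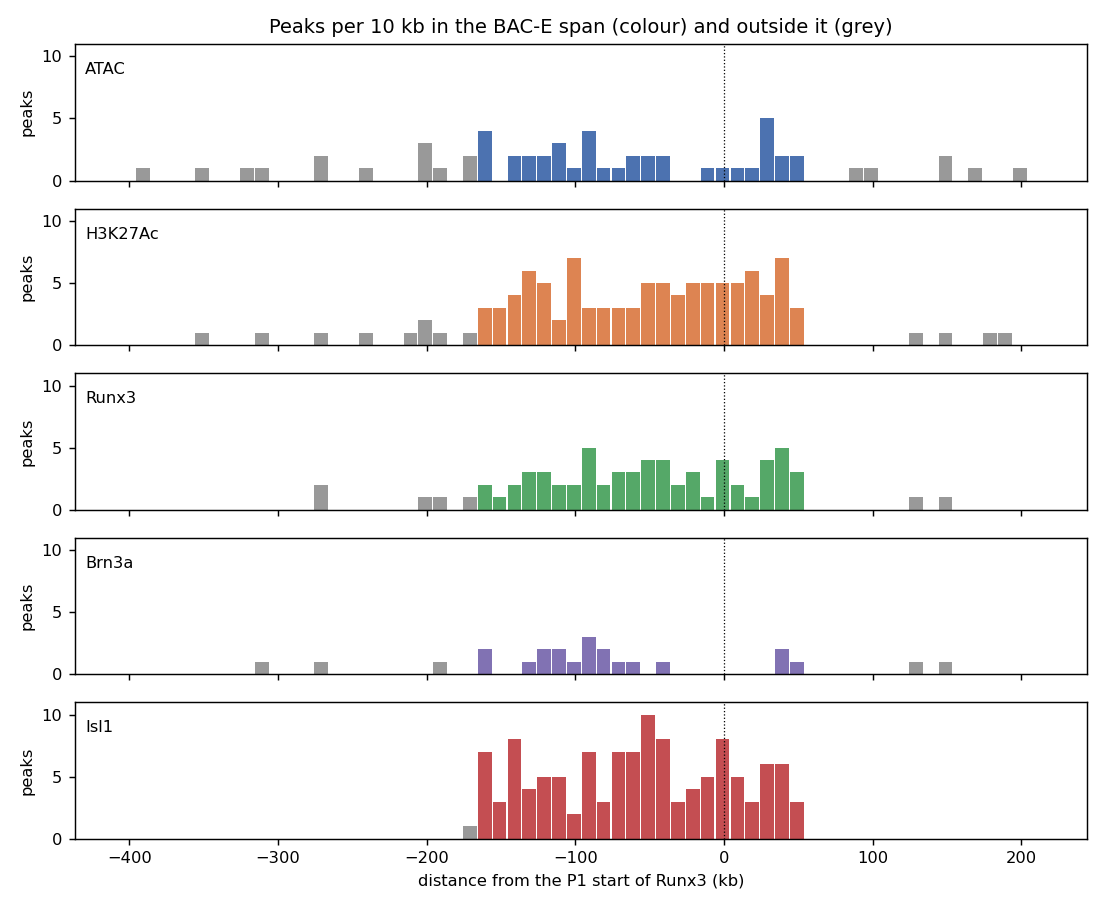
Number of peaks (y axis) in windows of 10 kb along chromosome 4 (x axis, kb from the P1 start of *Runx3*, dotted line), with 1 panel for each list. Coloured bars lie in the BAC-E stretch and grey bars outside it. Isl1 reached up to 10 peaks in a window inside the stretch, and the first peak after its 3' end, of ATAC, lay 31.8 kb away.

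The crowding ended abruptly on both sides. On the 5' side the outermost crowded peaks had their midpoints just before the stretch: ATAC at chr4:134954315-134954619, Isl1 at chr4:134954150-134954561, Runx3 at chr4:134954281-134954603 and H3K27Ac at chr4:134953961-134954908. Beyond these, the next peak was 8.43 kb from the stretch for ATAC, 23.1 kb for H3K27Ac, 23.7 kb for Runx3 and 245 kb for Isl1, and the nearest Brn3a peak outside lay at 23.6 kb. On the 3' side the last peak of any list was an Isl1 peak that ended at 52.2 kb, 1.76 kb before the end. The next ATAC peak lay 31.8 kb after the end, the next peaks of H3K27Ac, Runx3 and Brn3a 72.2, 72.8 and 72.8 kb after it, and the next Isl1 peak 338 kb after it. The 3' end of the crowd was inside *Runx3*, before its last exon at 54.6 kb. In the flanks, the annotated starts of *Maco1*, *Rhd*, *Tmem50a*, *Rsrp1*, *Syf2*, *Clic4* and *Srrm1* each had an ATAC and an H3K27Ac peak within 1 kb. The start of *Ncmap*, which lies beyond the 3' flank, had neither.

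Between these ends the crowd was continuous for 3 of the lists. Each of the 22 windows of 10 kb held at least 2 H3K27Ac peaks, 1 Runx3 peak and 2 Isl1 peaks. ATAC peaks were found in 19 windows and Brn3a peaks in 12. H3K27Ac covered 17.4 to 93.4% of a window (median 59.9%), Isl1 3.94 to 34.3% and Runx3 2.18 to 36.1%. The most covered window by H3K27Ac lay between -46 and -36 kb, far from both promoters.

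H3K27Ac covered 57.3% of the stretch, 126 kb in all, against 4.50% and 2.76% of the flanks and 1.07% of the genome. Isl1 peaks covered 21.1% of it, Runx3 14.3%, ATAC 5.50% and Brn3a 3.06%, against at most 0.187%, 0.683%, 1.37% and 0.350% of a flank. A base of the stretch lay in a peak of at least 1 list in 63.6% of cases. The longest stretches in no list ran from -79.2 to -74.2 kb, between R2 and R1 (4.98 kb), and from -150.7 to -146.0 kb (4.70 kb). Bases that the reference masks as repeats made up 19.9% of the stretch, 31.3% and 33.1% of the flanks, 13.3% of the bases in any list and 31.3% of the bases in none. H3K27Ac covered 62.2% of the unmasked and 37.4% of the masked bases of the stretch. The authors had removed peaks with over 60% of their length in repeats, and for ATAC the methods also state that reads without a unique position were removed.

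The peaks were also wider than those of their whole lists. The median width of H3K27Ac peaks was 876.5 bp against 716 bp, of Runx3 peaks 396 bp against 281 bp, of Isl1 peaks 335 bp against 218 bp, of Brn3a peaks 283 bp against 214 bp and of ATAC peaks 228 bp against 204 bp. They were not wider than all neighbours: in the 5' flank the median of the 12 ATAC peaks was 268.5 bp and that of the 9 H3K27Ac peaks 948 bp. Of the Runx3 peaks 9.84% were 1 kb or wider (6 of 61), against 0.179% of the whole list. The widest Runx3 peak of the stretch, at R3, measured 1706 bp, followed by 1508 bp at -164.7 kb and 1341 bp at 39.7 kb. The widest Brn3a peaks were 1231 bp at R3, 598 bp at R2 and 566 bp at 50.8 kb, and the widest ATAC peaks, 1181, 708 and 668 bp, lay at the same 3 elements. The widest Isl1 peaks measured 1284 bp at R2, 1280 bp at R3 and 1073 bp at P1. H3K27Ac was widest away from these, with 6578 bp about -45.0 kb and 5049 bp about -59.3 kb, and then 4930 bp about -93.4 kb, which took in R3.

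No other protein-coding gene had a window like it for 3 of the lists. A window of the same length and offset was laid around the start of each of the 21933 other protein-coding genes whose window does not touch the stretch. Windows of neighbouring genes overlap, so they are not independent. The *Runx3* window held more H3K27Ac, Runx3 and Isl1 peaks than any of them. The highest elsewhere were 53 H3K27Ac peaks at *Hoxb1*, with 52 at *Hoxb2* and at *Hoxb3*, 20 Runx3 peaks at *Ezh2* and *Zfp398*, followed by 17 at *Lrrn4cl*, and 22 Isl1 peaks at *Tle3*, followed by 14 at *Nefm* and 13 at *Chst15*. The medians were 4, 2 and 1. For ATAC, 19 windows held as many as 39 peaks or more, up to 56 at the histone genes *Hist1h2ad*, *Hist1h2bg* and *Hist1h3d*. For Brn3a, 10 windows held 19 or more, up to 27 at *Tle3*, 26 at *Nefm*, which encodes a neurofilament, and 25 at *Zfp608*.

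Windows at the genes chosen for comparison had far fewer H3K27Ac, Runx3 and Isl1 peaks than that of *Runx3*. *Pou4f1* had 18 Brn3a peaks, close to the 19 of *Runx3*, but 8 Isl1, 1 Runx3 and 4 H3K27Ac peaks. *Ntrk2*, which encodes TrkB, had 10 Runx3, 17 Brn3a and 9 Isl1 peaks with 2 of H3K27Ac. *Ntrk3*, which encodes TrkC, had 10 H3K27Ac, 3 Runx3, 4 Brn3a and 4 Isl1 peaks. *Isl1*, *Etv1*, *Neurod1*, *Prdm12* and *Runx1* had 0 to 4 Runx3, 4 to 6 Brn3a, 0 to 4 Isl1 and 1 to 5 H3K27Ac peaks. The labelled cell type was checked on markers. All 5 sensory neuron markers (*Ntrk3*, *Pou4f1*, *Isl1*, *Tubb3* and *Elavl4*) had an ATAC peak at a start and 4 an H3K27Ac peak, *Pou4f1* having none, and of 10 markers of other cells 4 had an ATAC peak and 2 of these, *Col1a1* and *Pdgfra*, also H3K27Ac. Of the 21911 protein-coding genes in this count, which was made apart from that of the windows, 65.1% had an ATAC peak and 58.9% an H3K27Ac peak at a start.

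Runx3, Brn3a and Isl1 peaks were merged into elements after peaks under 300 bp (ATAC peaks under 500 bp) had been widened to that length about their midpoint, and the 5 lists were then laid on them. This gave 125 elements with a median width of 410 bp, of which 96 ended upstream of P1, 1 was at P1 and 28 lay further 3'. The largest class was Isl1 with H3K27Ac and no other list, with 54 elements, and a further 13 had Isl1 alone. All 5 lists met at 14 elements, and at 5 when peaks were set to a fixed width about their midpoint. Where Brn3a was absent, Runx3, Isl1 and H3K27Ac met at 13 elements without ATAC and at 12 with ATAC. Where Brn3a was present, they met at 2 without ATAC and at the 14 with all 5 lists. ATAC was missing from 96 of the 125, while H3K27Ac was present at 105 and Isl1 at 112. All 19 Brn3a peaks fell into 16 elements, and each of these also had Runx3, Isl1 and H3K27Ac. Of the peaks that are not TF peaks, 28 H3K27Ac and 4 ATAC peaks touched no element.

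**Figure D2:**
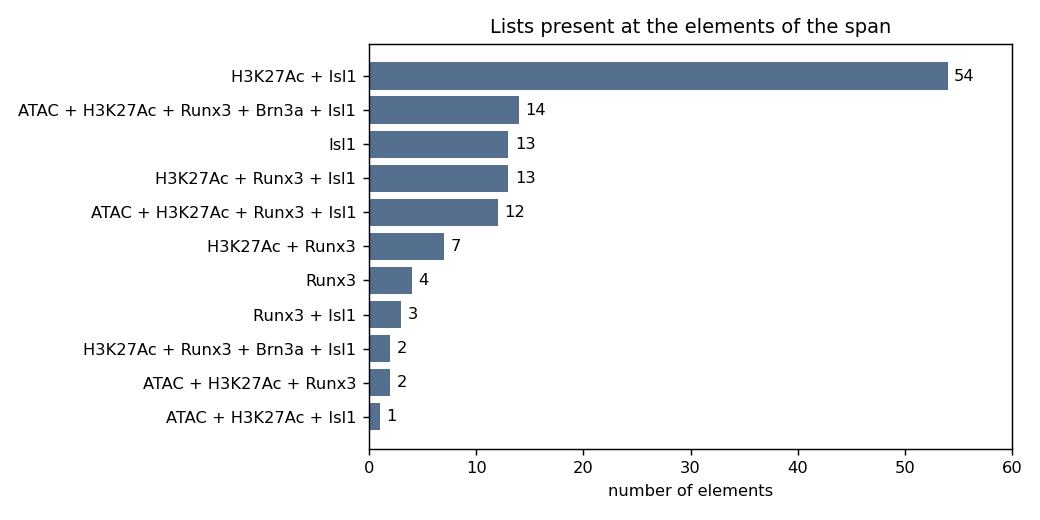
Number of elements (x axis) for each combination of the 5 lists (y axis) over the 125 elements built from Runx3, Brn3a and Isl1 peaks. Isl1 with H3K27Ac was the most frequent combination with 54 elements, and all 5 lists met at 14.

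Along the chromosome the 14 elements with all 5 lists were uneven. There were 6 between the 5' end and R3: at -164.7, -126.5, -125.4, -118.0, -112.8 and -110.9 kb. In the 24.9 kb from R3 to R1 there were 4: R3 itself at -94.2 kb, an element at -88.2 kb, R2 at -82.4 kb and R1 at -70.5 kb. Upstream of P1 followed those at -60.0 and -40.3 kb. After P1 there were 2, at 41.2 kb in an intron of *Runx3* and at 50.9 kb, across the end of an exon. Of the 14, 10 carried RBS, 9 BRNF and 11 LHXF, and none lacked all 3.

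**Figure D3:**
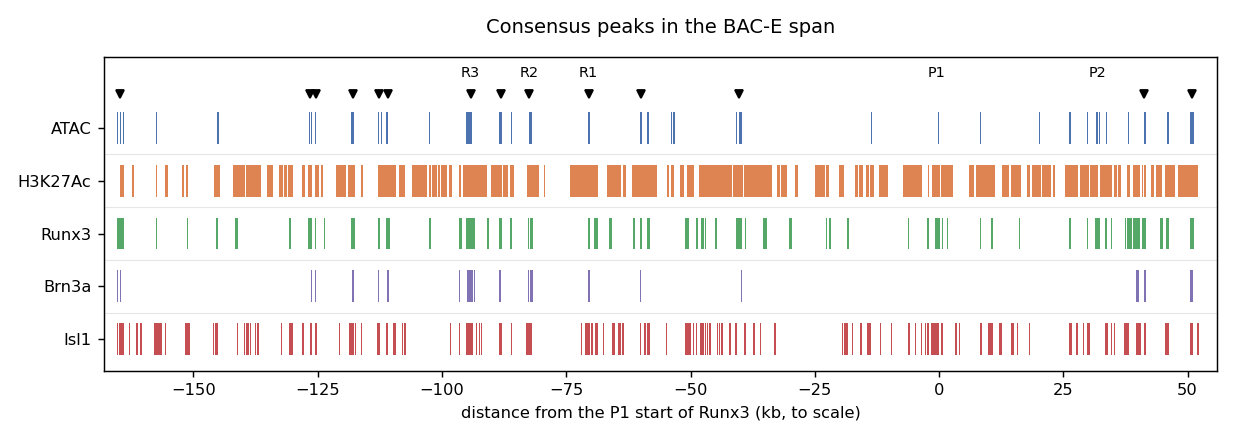
Peaks of the 5 lists (y axis) drawn to scale along the BAC-E stretch (x axis, kb from the P1 start). Triangles mark the 14 elements with all 5 lists, and the names stand over R3, R2, R1, P1 and P2. H3K27Ac and Isl1 peaks occur all along the stretch, with gaps between them, and Brn3a has no peak between -39.8 and 39.9 kb.

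The region from R3 to R1 held 6 of the 19 Brn3a peaks, 8 Runx3, 13 Isl1 and 6 ATAC peaks. Of the 6 Brn3a peaks 5 lay in R3, R2 and R1, which were named for holding such peaks. Per 10 kb, Brn3a had 1.13 peaks from the 5' end to R3, 0.290 from R1 to P1 and 1.39 from P2 to the 3' end. R1, R2 and R3 were recognised by all 5 lists with BRNF and LHXF marks upstream of P1, RBS at R3 and none at R1 and R2. Such elements numbered 5, and the names were given to the 3 nearest P1, with R3 taken as the farthest of these. The text of the study gives neither coordinates nor an order for R1, R2 and R3, so the names were assigned here. The other 2, at -118.0 kb (1 RBS) and -112.8 kb (0 RBS), bore the same lists and marks as R3 and as R1 and R2.

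R3 (chr4:135025565-135027277) was the widest element with all 5 lists, at 1713 bp. It held 1 Runx3 peak with 7 RBS, 2 Brn3a peaks of which 1 had BRNF, 1 Isl1 peak with LHXF, and the widest ATAC peak of the stretch. The 7 Runx matches were spread over the element, at positions 347, 826, 1127, 1396, 1567, 1638 and 1642 from its 5' end, and a POU core lay at position 270. R2 (chr4:135037575-135038923) measured 1349 bp, with 2 Runx3 peaks and no RBS, 2 Brn3a peaks of which 1 had BRNF, and the widest Isl1 peak of the stretch. Its POU core lay at position 758. R1 (chr4:135049845-135050478) was the shortest at 634 bp, with 1 peak of each list, no RBS, and 2 LIM motifs at positions 270 and 443 on either side of the POU core at 421. The element at -88.2 kb (chr4:135032083-135032850) held 2 Runx3 peaks with 8 RBS between them, 7 of them in the 481 bp of the first, 1 Brn3a peak without BRNF and 1 Isl1 peak with LHXF.

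**Figure D4:**
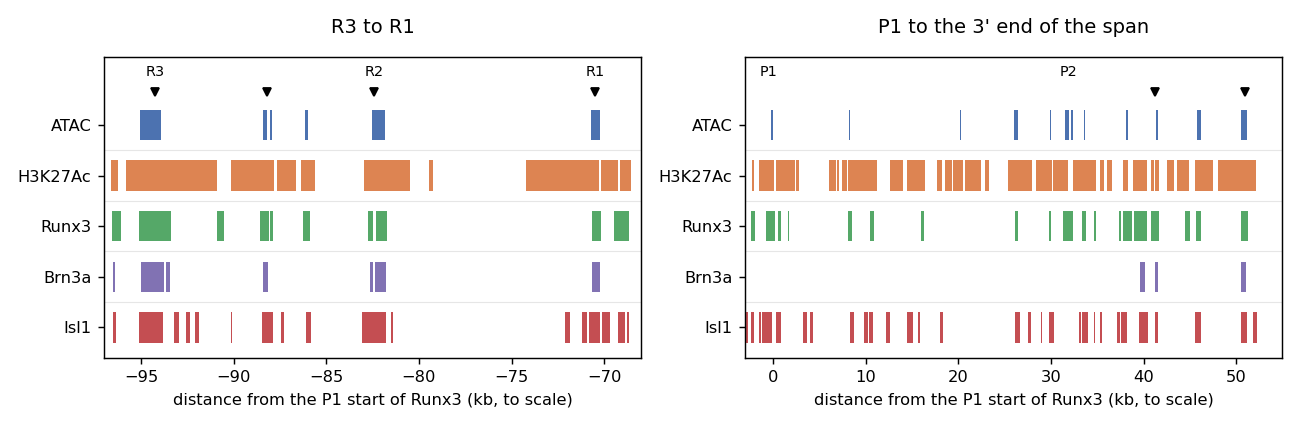
The same peaks at larger scale (x axes, kb from the P1 start) from R3 to R1, left, and from P1 to the 3' end of the stretch, right, with triangles at elements of all 5 lists. Brn3a peaks lie under R3, R2, R1 and the element at -88.2 kb, and there is none at P1 or P2.

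Neither promoter had a Brn3a peak. The gap between the last of the 16 Brn3a peaks upstream of P1 and the first of the 3 downstream measured 79.7 kb, from -39.8 to 39.9 kb, while Runx3, Isl1 and H3K27Ac peaks ran through it. P1 (chr4:135119482-135120897) had ATAC, H3K27Ac and Isl1 and a Runx3 peak of 1016 bp with 11 RBS, the most of any peak in the stretch. The Isl1 peak of 1073 bp there had no LHXF. The whole element held 13 Runx matches, 12 of them before the start, from -1027 to -44 bases, and the last at 119 bases after it. P2 (chr4:135151964-135153074) had 2 ATAC peaks, 2 H3K27Ac peaks and a Runx3 peak of 1111 bp with 8 RBS, but neither Brn3a nor Isl1. Of its 8 matches 5 lay before the start, from -503 to -227 bases, and 3 after it, from 246 to 415 bases.

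Few peaks of the stretch were at promoters. Within 1 kb of any annotated start, P1 and P2 included, lay 4 of 39 ATAC peaks (10.3%, whole list 36.4%), 4 of 96 H3K27Ac peaks (4.17%, whole list 47.7%), 5 of 61 Runx3 peaks (8.20%, whole list 46%), none of 19 Brn3a peaks (whole list 17.7%) and 5 of 119 Isl1 peaks (4.20%, whole list 9.92%). The stretch holds few annotated starts.

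Between P1 and P2 lay 31.1 kb, nearly all first intron, with 16 elements and none with all 5 lists. It held 4 ATAC, 16 H3K27Ac, 7 Runx3 and 14 Isl1 peaks. From P2 to the 3' end, 21.6 kb, there were 11 elements, and Runx3 peaks were densest here outside the promoters, with 4.17 per 10 kb against 2.12 to 3.21 in the other segments. A pair of Runx3 peaks with 5 RBS each lay at 38.3 and 39.7 kb in an intron of *Runx3*. They were 987 and 1341 bp wide, and Isl1 and H3K27Ac were present at both, ATAC at the first and Brn3a at the second.

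The share of Runx3 peaks with RBS was that of the whole list, whereas fewer Brn3a and Isl1 peaks bore their marks. RBS were found in 44 of 61 Runx3 peaks (72.1%, 59.8 to 81.8%), against 71.4% of the whole list. BRNF was found in 9 of 19 Brn3a peaks (47.4%, 27.3 to 68.3%), against 72.1%. LHXF was found in 49 of 119 Isl1 peaks (41.2%, 32.7 to 50.2%), against 71.4%. Whole-list shares thus lay inside the interval for Runx3 and above it for Brn3a and Isl1.

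Over the whole lists the share with a motif rose with width, so shares were also taken by width. Below 400 bp LHXF marked 14 of 72 Isl1 peaks (19.4%, 11.95 to 30.0%), against 69.2% of the whole list at that width, and from 400 bp up 35 of 47 (74.5%, 60.5 to 84.7%), against 93.9%. RBS were in 19 of 32 Runx3 peaks below 400 bp (59.4%, 42.3 to 74.5%), against 69%, and in 25 of 29 wider ones (86.2%, 69.4 to 94.5%), against 82.2%. BRNF marked 4 of 13 Brn3a peaks below 400 bp (30.8%, 12.7 to 57.6%), against 70%, and 5 of 6 wider ones (83.3%, 43.6 to 97.0%), against 91.6%. The LHXF share thus lay below that of the whole list at both widths.

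Single Runx3 peaks often held several RBS, 130 in all. Of the 61 peaks 17 had none, 12 had 1, 9 had 2, 11 had 3, and 12 had 4 or more (19.7%, 11.6 to 31.3%), against 5.13% of the whole list with 4 or more. Per kb, Runx3 peaks of the stretch held 4.12 Runx matches, the rest of the stretch 2.20, and the whole Runx3 list 4.32. The POU core came to 0.594 per kb of Brn3a peaks in the stretch (4 matches), 0.169 in the rest of it and 1.14 over the whole Brn3a list. The 2 LIM motifs came to 0.151 per kb of Isl1 peaks in the stretch (7 matches), 0.0807 in the rest and 0.948 over the whole Isl1 list. In letters, too, Runx3 peaks were about as rich in their motif as over the whole list and Isl1 peaks were not. BRNF and LHXF stand for more sequences than these words.

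Overlap between lists was also unlike that of the whole lists. Of the Runx3 peaks, 54 of 61 overlapped H3K27Ac (88.5%, 78.2 to 94.3%, whole list 60.9%) and 47 Isl1 (77.0%, 65.1 to 85.8%, whole list 32.1%). By contrast 31 overlapped ATAC (50.8%, 38.6 to 62.9%, whole list 77.9%) and 17 Brn3a (27.9%, 18.2 to 40.2%, whole list 57.6%). Runx3 peaks were thus more often with Isl1, and less often with ATAC and with Brn3a, than over the genome. The stretch held 119 Isl1, 39 ATAC and 19 Brn3a peaks for these 61 Runx3 peaks, and such numbers limit the shares. Isl1 peaks covered 21.1% of the stretch and 0.142% of the genome. What part of the differences this accounts for was not tested. The direction for H3K27Ac depended on peak width: with all peaks set to a fixed width about their midpoint (500 bp for ATAC, 300 bp for the others) the share was 36.1% (25.2 to 48.6%), against 43.3% of the whole list.

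Brn3a peaks sat almost wholly among the other lists. All 19 overlapped a Runx3 peak (100%, 83.2 to 100%, whole list 23.8%), 18 an Isl1 peak (94.7%, 75.4 to 99.1%, whole list 30.5%), 18 H3K27Ac (whole list 26.9%) and 16 ATAC (84.2%, 62.4 to 94.5%, whole list 46.1%). Runx3, Isl1 and H3K27Ac peaks covered 14.3, 21.1 and 57.3% of the stretch, and the part of this crowding in the overlaps was not tested.

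Isl1 peaks overlapped H3K27Ac in 101 of 119 cases (84.9%, 77.4 to 90.2%, whole list 22.2%) and Runx3 in 49 (41.2%, 32.7 to 50.2%, whole list 27.1%). They overlapped ATAC in 29 (24.4%, 17.5 to 32.8%, whole list 47.2%) and Brn3a in 17 (14.3%, 9.11 to 21.7%, whole list 62.6%). The share with Brn3a was thus the one that lay furthest below that of the whole list. The stretch held only 19 Brn3a peaks for the 119 of Isl1, which limits this share, and 18 of those 19 overlapped Isl1. Seen from the other side, 38 of 39 ATAC peaks overlapped H3K27Ac (97.4%, 86.8 to 99.5%, whole list 46.5%) and 34 Runx3 (87.2%, 73.3 to 94.4%, whole list 17.5%). Of 96 H3K27Ac peaks 63 overlapped Isl1 (65.6%, 55.7 to 74.4%, whole list 10.3%) and 29 ATAC (30.2%, 21.9 to 40.0%, whole list 73.4%). Most H3K27Ac peaks of the stretch thus had no ATAC peak, but there were only 39 ATAC peaks for the 96, which limits this share. With the fixed widths, which cut down the wide H3K27Ac peaks, 21 of 39 ATAC peaks overlapped H3K27Ac (53.8%, 38.6 to 68.4%, whole list 39.4%) and 17 of 96 H3K27Ac peaks overlapped ATAC (17.7%, whole list 68.6%). H3K27Ac then overlapped 42.1% of Brn3a peaks (23.1 to 63.7%, whole list 19.5%) and 38.7% of Isl1 peaks (30.4 to 47.6%, whole list 17.4%).

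**Figure D5:**
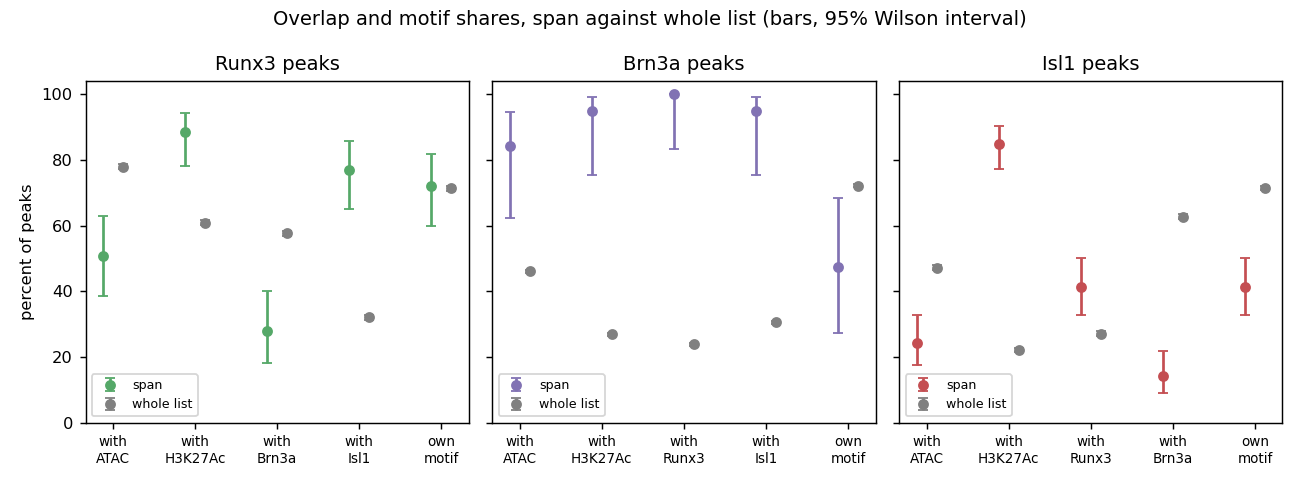
Percent of Runx3, Brn3a and Isl1 peaks (y axes) that overlap each other list or bear their own motif (x axes: RBS, BRNF or LHXF). Coloured points are the peaks of the BAC-E stretch and grey points the whole list, with 95% Wilson intervals as bars. Runx3 peaks have the same RBS share in both, 72.1% and 71.4%, and Isl1 peaks bear LHXF in 41.2% against 71.4%.

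Isl1 peaks that stood apart from the other TFs and from open chromatin bore LHXF least. Of 50 Isl1 peaks with ATAC, Runx3 or Brn3a, 29 had LHXF (58.0%, 44.2 to 70.6%, whole list 76.4%), with a median width of 483.5 bp. Of the 69 with none of these, 20 had it (29.0%, 19.6 to 40.6%, whole list 57.1%), with a median width of 250 bp. For Runx3 the order was the other way. RBS were in 25 of 30 Runx3 peaks without ATAC (83.3%, 66.4 to 92.7%, whole list 89.5%) and in 19 of 31 with ATAC (61.3%, 43.8 to 76.3%, whole list 66.3%).

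Measures that extra copies of the stretch could raise are those that rest on the number of fragments, namely how many peaks were called, how wide they were, how much they covered and hence how often they overlap. The letters of the DNA and the positions of motifs are not among them. The share of peaks with a motif and the number of RBS in a peak depend on which peaks were called and on their width. Extra copies could therefore shift these too. The lists were also not called alike. Within each of 3 lists the samples were called against a single NRS library: the 3 Isl1, the 2 Brn3a and the 5 H3K27Ac samples. The 8 Runx3 samples used 4 different controls, and no control is named for ATAC. Over the 18 samples with a control there were 5 different controls, so some served more than 1 list. The order of crowding, from ATAC and Brn3a through H3K27Ac and Runx3 to Isl1, cannot be told apart from these differences between lists, and the same lists of cells without the transgene were not analysed here.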

How the data were processed

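The authors aligned reads to mm10 and called peaks with MACS2, for ATAC from nucleosome-free read pairs and for CUT&RUN from short fragments against NRS. They kept peaks shared by at least 2 of 3 ATAC, 3 of 5 H3K27Ac, 4 of 8 Runx3, 2 of 2 Brn3a and 2 of 3 Isl1 samples and left out blacklisted regions. The deposited files hold peak coordinates with RBS counts or motif marks, a unit that is neither read count nor signal, so the depth is unknown. Starts were read as 1-based: the RBS of all 13443 Runx3 peaks were then recounted exactly. A single Brn3a peak off the nuclear chromosomes was left out. Genes came from GENCODE M21, promoters from RefSeq and sequence from GRCm38.p6, in the coordinates of mm10. An overlap of 1 bp counted after widening.

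Regions named are elements with all 5 lists, those at P1 and P2, the 3 widest peaks of each list and Runx3 peaks with 5 or more RBS; genes are those of the flanks and of the comparison windows, except that 1 is not reported here. The members and lists were chosen with earlier results of these data known. Overlap code equalled a brute-force count in 82 of 82 simulated cases. Of the planted Runx and LIM motifs, 400 of 400 were found, and the POU core was not planted. Python 3.11.15, numpy 2.4.6, pandas 2.3.3 and matplotlib 3.10.9 were used.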

Additional observations from a re-analysis of the deposited data

How the results depend on the processing

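Of 96 alternatives over 41 values, 84 moved a value by no more than its Wilson interval or, for counts, widths, percentiles and ratios, by no more than 1.5 times. Merging peaks within 500 bp left 47 H3K27Ac and 77 Isl1 peaks, and density ratios of 6.71 for H3K27Ac and 154 for Isl1. With flanks of 1 Mb the Isl1 ratio was 54.1. In covered length the ratio was 24.1 for Runx3 and 11.6 for Brn3a. Widened ATAC peaks covered 9.32% of the stretch. With fixed widths, 36.1% of Runx3, 42.1% of Brn3a and 38.7% of Isl1 peaks overlapped H3K27Ac and 5 elements held all 5 lists, since wide peaks are then shortened. No density ratio fell below 1 in any alternative, and moving the ends of the stretch by 5 kb moved no count of peaks by over 1.5 times.

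No paired analysis was possible because each list pools its samples and holds no column for a replicate, and no replicate was left out for the same reason. Depth, and the signal behind each peak, are unknown.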
